A study of Homo sapiens with 2 samples.

Results

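Clustered human microRNAs of 3 groups were followed in oral squamous cell carcinoma cells: 35 mature miRNAs of the DLK1-DIO3 region on chromosome 14, 16 of the chromosome 19 cluster known as C19MC, and 4 of the neighbouring cluster of miR-371, miR-372 and miR-373. These 55 names were taken from a fixed list, matched exactly to the table the authors deposited, which has 1213 rows, and 27 of them had a row. The samples were 2 cultures with 1 small RNA library each. UM-SCC6 is the parental oral squamous cell carcinoma line, and UM-SCC6-M is the population obtained from it after 3 successive harvests of the cells that had crossed a matrix channel of a microfluidic chip. The labels describe UM-SCC6-M as more invasive and as having some mesenchymal traits. Both libraries are from the same line and differ only in that selection, as far as the labels say. Nothing replicates either library, so differences are given as sizes with counting intervals and no condition was tested against the other.

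A microRNA (miRNA) is a short RNA cut from a hairpin, and it lowers the output of messenger RNAs that pair with its seed, bases 2 to 8 from its 5′ end. The DLK1-DIO3 region is imprinted, and its miRNAs are made from the maternal chromosome together with the non-coding RNAs MEG3, MEG8 and MEG9. They are known from brain, embryo, placenta and mesenchymal cells. C19MC is a primate-specific, paternally expressed array of related hairpins that is active mainly in the placenta. The cluster of miR-371 to miR-373 is known from embryonic stem cells and germ cell tumours. In most adult epithelia these groups are described as silent or nearly so.

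In RefSeq (GRCh38.p14) the listed products of the DLK1-DIO3 group lie on the plus strand of chromosome 14 between 100852409 and 101066786, a stretch of 214 kb with 52 hairpins. The C19MC products lie on the plus strand of chromosome 19 between 53666692 and 53762418 (45 hairpins). Those of miR-371 to miR-373 lie just beyond them, between 53787678 and 53788770. In GENCODE 29 (GRCh38), 26 of the 34 member hairpins of chromosome 14 overlapped another annotated gene. Introns of the lincRNA MEG8 held 11 of them, introns of the lincRNA AL117190.1 8, introns of MIR381HG 4, introns of MEG9 3 and an exon of MEG9 1. MIR370 lies in introns of both MEG8 and AL117190.1. MIR127, MIR136, MIR431, MIR432 and MIR433 lie opposite an exon of RTL1, a retrotransposon-derived gene expressed from the other parental chromosome. None of the 15 matched C19MC member hairpins overlapped another annotated gene.

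The members with a listed value are shown first. Statements on levels below rest on them and, for DLK1-DIO3, also on 8 members listed at 0 whose reads were recovered as described below. Sequences are from RefSeq (GRCh38.p14), written 5′ to 3′ with the seed in capitals. RefSeq had a sequence for 54 of the 55 members. miR-522-3p also had a listed value. miR-1283 and miR-519c-5p are other C19MC products with a listed value, and miR-127-3p is added because it is the one member of its chromosome segment with a row.

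miR-379-5p: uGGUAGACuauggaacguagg
miR-381-3p: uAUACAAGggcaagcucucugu
miR-411-5p: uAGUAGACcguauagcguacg
miR-323a-3p: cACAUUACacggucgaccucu
miR-409-3p: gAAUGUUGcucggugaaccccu
miR-654-3p: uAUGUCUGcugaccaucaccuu
miR-889-3p: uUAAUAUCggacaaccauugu
miR-127-3p: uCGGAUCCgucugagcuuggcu
miR-516a-5p: uUCUCGAGgaaagaagcacuuuc
miR-519a-3p: aAAGUGCAuccuuuuagagugu
miR-1283: uCUACAAAggaaagcgcuuucu
miR-519c-5p: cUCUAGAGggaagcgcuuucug

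All of these seeds differ from each other. miR-379-5p and miR-411-5p come from adjacent hairpins, at 101022071 to 101022091 and 101023340 to 101023360, and their sequences differ at 7 positions when lined up from the 5′ end. The closest RefSeq relative of miR-381-3p is miR-300 of the same cluster, with 3 differences, and miR-300 had no row. Outside the 3 clusters, the RefSeq miRNA nearest to any member with a row differed at 8 or more positions, for the 26 with a sequence, lined up from the 5′ end with each surplus base counted as a difference. miR-519c-5p has the same sequence as 5 other C19MC names (miR-518e-5p, miR-519a-5p, miR-519b-5p, miR-522-5p and miR-523-5p), so its reads do not tell which hairpin gave them. miR-516a-5p, miR-519a-3p and miR-1283 each come from 2 hairpins.

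A first count asked how many members were seen at all. The table gives normalized reads, which the values show to be read counts divided by 1 factor per library, and lists values below 1 as 0. One UM-SCC6-M read was worth 0.119 and one parental read 0.133, so a listed 0 can hide up to 8 reads in the first and up to 7 in the second. Of the 35 DLK1-DIO3 members, 12 had no row, 16 were listed at 0 in both libraries and 7 were above 0 in at least 1. Of the 16 C19MC members, 13 had no row, 0 were listed at 0 in both and 3 were above 0. Of the 4 members from miR-371 to miR-373, 3 had no row and miR-371a-5p was listed at 0 in both. Over all deposited rows, 46.0% were above 0 in at least 1 library, against 30.4% of the 23 DLK1-DIO3 rows. A name without a row was not analysed here, and nothing is said of its reads.

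The zeros could be opened further. Where both values were listed at 0 but a fold change and p-value were deposited, these together gave whole read numbers for both libraries. For DLK1-DIO3 this added 8 members to the 7 above 0, so reads in both libraries were known for 15 of its 23 rows. The other 8 rows of that cluster (miR-329-3p, miR-376c-3p, miR-377-3p, miR-380-3p, miR-485-3p, miR-487b-3p, miR-655-3p and miR-656-3p) and miR-371a-5p had no deposited fold change. Fold changes were deposited down to 1 read in each library (42 rows), so these 9 members were taken to have no read in at least 1 library and at most 8 in the other. The members without a row were, in DLK1-DIO3, miR-136-5p, miR-154-5p, miR-299-5p, miR-337-3p, miR-370-3p, miR-376a-3p, miR-410-3p, miR-431-5p, miR-432-5p, miR-433-3p and both arms of miR-493. In C19MC they were miR-512-3p, miR-515-5p, miR-516b-5p, miR-517a-3p, miR-517c-3p, miR-518b, miR-518e-3p, miR-519d-3p, miR-520a-3p, miR-520c-3p, miR-525-5p, miR-526b-5p and miR-1323, and in the last cluster miR-371a-3p, miR-372-3p and miR-373-3p. For DLK1-DIO3, "mostly silent" thus meant few reads, at most 60 in a library for any member with known reads, and not a complete absence. It did not describe miR-516a-5p and miR-522-3p of C19MC, which had over 100 reads in each library.

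The 15 DLK1-DIO3 members with known reads together held 134 reads in UM-SCC6-M and 135 in the parental library. As a share of all recovered miRNA reads, in the usual RPM unit, this was 17.4 (exact 95% interval 14.6 to 20.6) in UM-SCC6-M and 16.5 (13.8 to 19.5) in UM-SCC6. The totals, added over all rows, were 7700366 and 8183824 recovered reads. These intervals, like all others here, are Clopper-Pearson and cover counting error only, since reads copied by PCR are not independent molecules. Some pairs of names had nearly equal reads, such as miR-7-5p (77230 and 92962) and miR-3529-3p (76484 and 92151). Whether reads were counted under more than 1 name was not tested, so the totals may exceed the reads sequenced. The 8 rows without a fold change could raise the members' sums to at most 198 and 191 reads. In bulk RNA, few cells with these miRNAs and little RNA in every cell cannot be told apart. The log2 ratio of the summed level, UM-SCC6-M over parental after the authors' scaling, was -0.16 (-0.52 to 0.19). It was 0.08 when the libraries were scaled to their total reads, so the sum gave no direction.

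The near-equal sums hid a different make-up. miR-381-3p had 13 reads in UM-SCC6-M and 60 in UM-SCC6, and was the most abundant member in the parental cells, with 44.4% of the cluster's reads (35.9 to 53.2) against 9.70% (5.27 to 16.0) in UM-SCC6-M. In normalized reads it stood at 1.55 against 7.97, which is 4.99-fold lower in UM-SCC6-M (interval 2.79 to 10.2). miR-379-5p, the first hairpin of its array, had 30 reads against 29 and a log2 ratio of -0.11 (-0.89 to 0.68). Without miR-381-3p the cluster held 121 reads in UM-SCC6-M and 75 in the parental library, and the log2 ratio of the sum was 0.53 (0.11 to 0.97). miR-381-3p was left out because it had the most reads, which it owed to its 60 parental reads. A move of the rest toward UM-SCC6-M follows from that choice, and the interval does not allow for it. The sign of the cluster's sum thus turned both under scaling to total reads and with miR-381-3p left out.

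**Figure D1:**
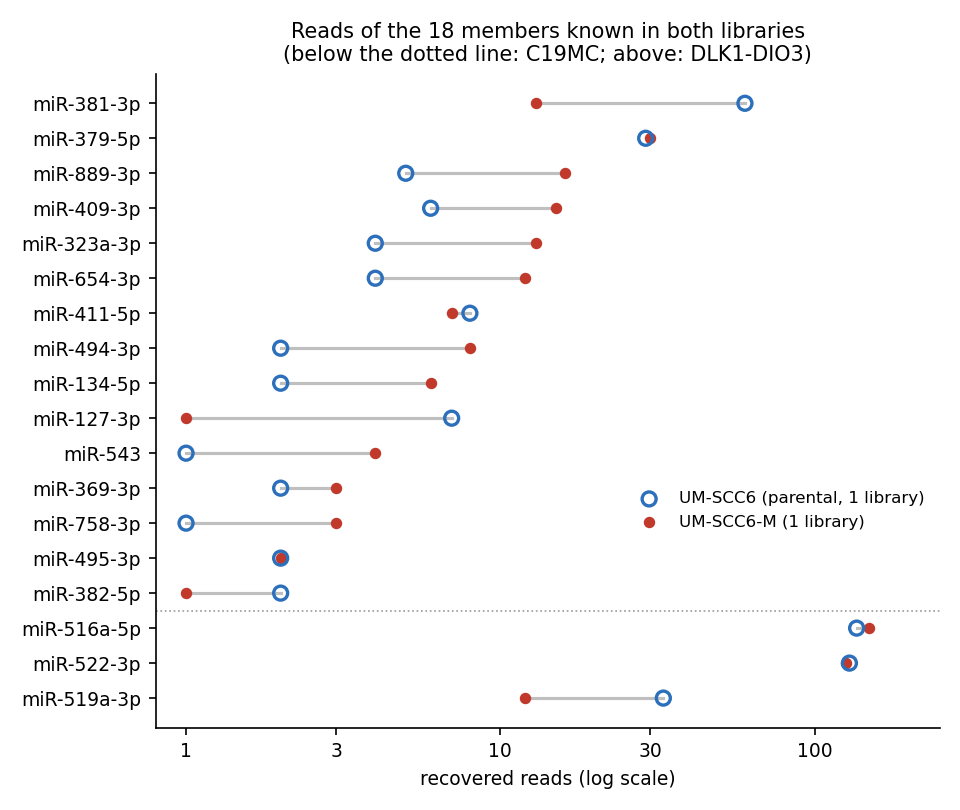
Recovered reads (log axis) of the 18 members with known reads, with a filled red point for the UM-SCC6-M library and an open blue circle for the parental library, 1 library each. miR-381-3p (13 against 60) and miR-127-3p (1 against 7) lie toward the parental side, while the 8 members called higher lie toward UM-SCC6-M.

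Members were then called by size, as at least 2-fold apart after adding 0.5 reads to each library. Of the 15 DLK1-DIO3 members with known reads, 8 were at least 2-fold higher in UM-SCC6-M, 2 at least 2-fold lower and 5 within 2-fold. As background, 12.2% of the 854 rows with known reads were at least 2-fold higher and 19.8% at least 2-fold lower. Among the 546 rows with at most 60 reads in the higher library, a range chosen from these members after their values were seen, the shares were 15.0% and 21.4%. The limit of 60 is the parental count of miR-381-3p. All 8 higher members had at most 16 reads, and no share is given for that narrower range. The median log2 ratio was 1.07 over the 15 members and -0.15 over all 854 rows. Members of 1 array share precursors and are not replicates of each other, and a raised median for 7 of them was already known from earlier work on these data. Under scaling to total reads, the table held 140 higher and 135 lower rows in place of 104 and 169, and the counts of 8 and 2 among the members were unchanged.

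Of the 8 higher members, 4 had a listed value. miR-889-3p had 16 reads in UM-SCC6-M and 5 in the parental library, a 2.70-fold difference with an interval of the log2 ratio from 0.01 to 3.33. miR-323a-3p had 13 against 4 and was also 2.70-fold higher (0.902 to 12.3). miR-654-3p had 12 against 4 (2.50-fold, 0.817 to 11.5) and miR-409-3p, which is cut from a hairpin inside MEG9, had 15 against 6 (2.14-fold, 0.824 to 7.07). All 4 were above 0 in the UM-SCC6-M column and listed at 0 in the parental column. Among these 4, only the interval of miR-889-3p left out a ratio of 1 under the authors' scaling, and by little.

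The other 4 higher members were listed at 0 in both columns. miR-494-3p had 8 reads against 2, miR-134-5p, a miRNA studied for its part in dendritic spine growth of neurons, 6 against 2, miR-543 4 against 1 and miR-758-3p 3 against 1. Their intervals all included a ratio of 1, and that of miR-494-3p ran from 0.717 to 34.7. At such counts a difference of the size seen is not distinguishable from counting error.

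On the lower side, miR-127-3p, which lies opposite RTL1 and is known to direct cleavage of its transcript, had 1 read in UM-SCC6-M and 7 in the parental library. Its ratio was 5.56-fold lower, and the interval ended at a ratio of 0.999, so it left out 1 only just. Within 2-fold lay miR-411-5p (7 against 8 reads), miR-369-3p (3 against 2), miR-495-3p (2 against 2) and miR-382-5p (1 against 2), besides miR-379-5p. The signs of miR-379-5p and miR-495-3p turned under scaling to total reads. In all, the interval left out a ratio of 1 for 3 of the 15 members, 1 higher and 2 lower, under the authors' scaling. Scaling to total reads adds 0.24 to every log2 ratio. The interval of miR-127-3p would then include 1 and that of miR-323a-3p would leave it out, so the balance of directions depended on the scaling. Over all rows with known reads this share was 38.9%, and over those with at most 60 reads in the higher library 14.8%. In the authors' deposited table none of the 18 members with a q-value had one below 0.05, and the lowest was that of miR-381-3p at 0.25345. By the form that its rows follow, the authors' test took scaled values, not reads, as counts. Those q-values and the intervals here are therefore not like measures.

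**Figure D2:**
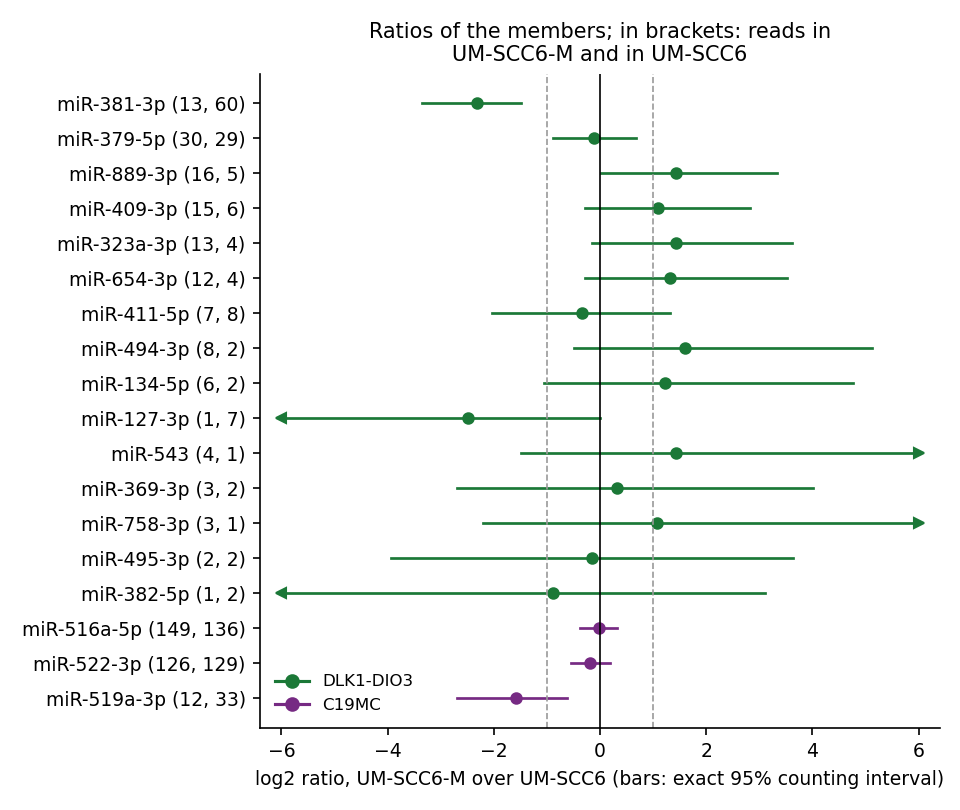
log2 ratios of UM-SCC6-M over parental (points) with exact 95% counting intervals (bars, arrows where they run beyond the axis) and the reads of both libraries in brackets. Dashed lines mark 2-fold. Bars of miR-381-3p and miR-519a-3p lie wholly below 0, and most others cross it.

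Nearly all known reads of the chromosome 14 cluster belonged to names at 1 end of it. Nearly all of its names with a row lie there too, so this does not compare levels between the ends. The widest gap between neighbouring members, 111 kb between miR-370-3p and miR-379-5p, divides the members into a first segment of 9 (100869075 to 100911207) and a second of 26 (101022071 to 101066786). This division was made after the values were seen. In the first segment miR-127-3p was the single member with a row, and the other 8, which had none, were not analysed here. In the second, 22 of 26 members had a row, 7 were above 0, and the 14 with known reads held 133 reads in UM-SCC6-M and 128 in the parental library.

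The other products of these hairpins, from a list written with earlier results known, were laid out in the same way. In the first segment 0 of 9 other names had a row, and in the second 11 of 47 did. Of those 11, none was above 0 and 5 had known reads; they are named after their values were seen. miR-382-3p had 8 reads in UM-SCC6-M against 2, miR-411-3p and miR-654-5p 3 against 1 each, miR-412-5p 2 against 1 and miR-323b-3p 1 against 1. The first 3 were at least 2-fold higher and none was lower, each within counting error. Over the 854 rows with known reads the shares were 12.2% higher and 19.8% lower. Among the 546 rows with at most 60 reads in the higher library they were 15.0% and 21.4%. With 5 names of 1 array, the count was not read as a result. For miR-382 the listed 5p arm (1 and 2 reads) was thus not the better covered arm in UM-SCC6-M. Members and other products together held 151 reads in UM-SCC6-M and 141 in the parental library, with a log2 ratio of -0.06 (-0.40 to 0.29).

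**Figure D3:**
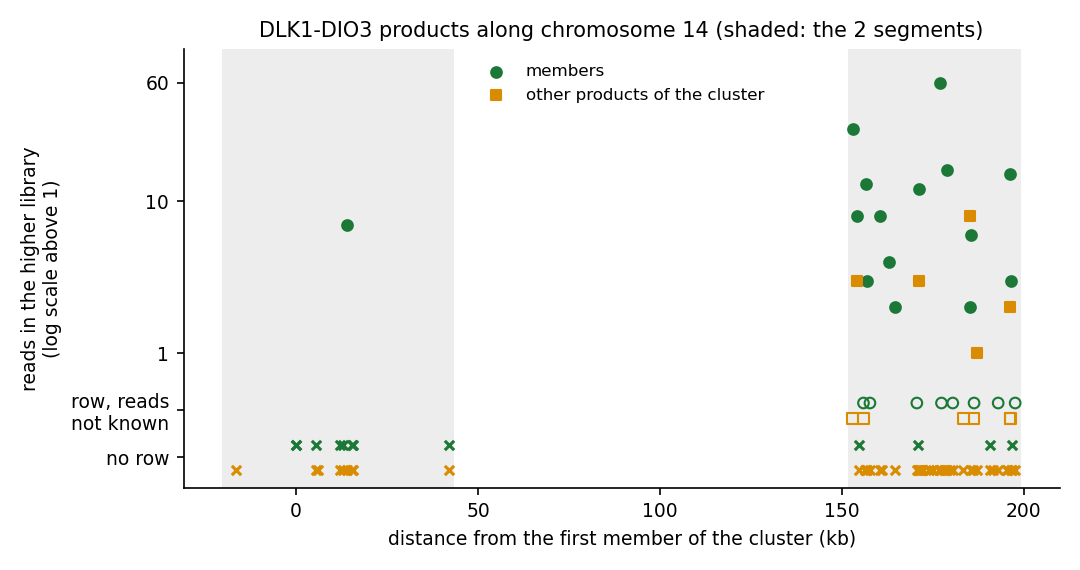
Products of the DLK1-DIO3 cluster by distance from its first member (kb) and reads in the higher library (log axis), with crosses for names without a row and open symbols for rows whose reads are not known. The first shaded segment holds 1 product with reads, miR-127-3p, and all other products with known reads lie in the second.

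Within the second segment, members share stretches outside the seed. The pair miR-495-3p and miR-543, with 2 and 4 UM-SCC6-M reads, ends in the same 12 bases. miR-329-3p and miR-655-3p, whose rows had no fold change, share their last 14. The shared stretch is in capitals, and each of the 2 stretches occurs in 2 of 2370 RefSeq mature miRNAs.

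miR-495-3p: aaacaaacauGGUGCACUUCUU
miR-543: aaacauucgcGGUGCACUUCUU
miR-329-3p: aacacaccUGGUUAACCUCUUU
miR-655-3p: auaauacaUGGUUAACCUCUUU

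The shorter run ACCUCU, read on the RNA strand, was in 4 of the 35 chromosome 14 members (miR-323a-3p, miR-329-3p, miR-655-3p and miR-656-3p) and in 0.717% of all RefSeq mature miRNAs. Their seeds differ, so these miRNAs are not of 1 seed family. Of the 4, only miR-323a-3p had a listed value.

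From C19MC, 3 members had a row, and miR-516a-5p and miR-522-3p held more reads than any other of the 18 members with known reads. miR-516a-5p (chromosome 19, 53756756 to 53756778 for its first hairpin) had 149 reads in UM-SCC6-M and 136 in the parental library, or 17.8 and 18.1 normalized reads. miR-522-3p had 126 against 129 reads. Their log2 ratios were -0.02 (-0.37 to 0.32) and -0.19 (-0.55 to 0.18), so both libraries held them at nearly the same level, and the intervals leave room for differences of up to 1.29-fold and 1.47-fold lower. Scaling the libraries to their totals turned both signs. By reads, miR-516a-5p ranked 231 in UM-SCC6-M and 232 in the parental library.

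miR-519a-3p, which carries the run AAGUGC typical of the cluster's 3p arms, differed more. It had 12 reads in UM-SCC6-M and 33 in the parental library, 2.98-fold lower with an interval of 1.54 to 6.51. It was the 1 of 3 C19MC members at least 2-fold apart, beside the 19.8% of all rows that were 2-fold lower. Together the 3 members held 287 and 298 reads, or 37.3 (33.1 to 41.8) and 36.4 (32.4 to 40.8) RPM. The log2 ratio of that sum was -0.21 (-0.45 to 0.03), and 0.03 under scaling to the totals.

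Of the other C19MC products, miR-1283 had 59 reads in UM-SCC6-M and 108 in the parental library, 2.03-fold lower (1.47 to 2.85). miR-519c-5p had 13 against 10, a log2 ratio of 0.21 (-1.08 to 1.57). miR-521 was listed at 0 with no fold change, and the other 51 of 54 listed names had no row. Of 4 other products of miR-371 to miR-373, miR-371b-3p was listed at 0 and 3 had no row. With miR-1283 and miR-519c-5p, C19MC had 359 and 416 reads and a log2 ratio of -0.37 (-0.57 to -0.16) under the authors' scaling. As shares these were 46.6 (41.9 to 51.7) RPM in UM-SCC6-M and 50.8 (46.1 to 56.0) in the parental library, with overlapping intervals. Scaling to the totals adds 0.24 to every log2 ratio. That carries the interval across 0 and brings miR-1283 within 2-fold, so both depended on the scaling. RefSeq names 65 mature products in this stretch of chromosome 19, of which 5 had a row under that name. miR-521 is among these 5, and miR-522-3p is not among the 65. Of the known reads of the 3 members with a row, miR-516a-5p held 51.9% in UM-SCC6-M and 45.6% in the parental library. miR-522-3p held 43.9% and 43.3%. The names without a row were not analysed, so these are not shares of all C19MC reads.

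**Figure D4:**
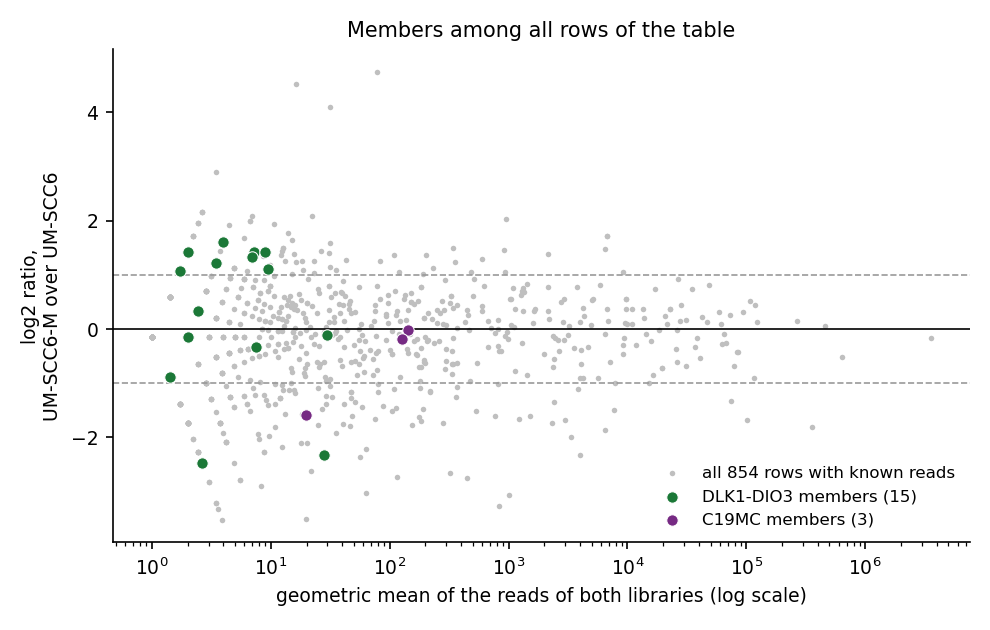
log2 ratio of UM-SCC6-M over parental against the geometric mean of the reads (log axis) for all 854 rows with known reads in grey, the 15 DLK1-DIO3 members in green and the 3 C19MC members in purple. All DLK1-DIO3 points lie left of 30 reads, and 3 members have more reads in both libraries than the median row (15 and 14 reads).

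Some C19MC members without a row, and those of miR-371 to miR-373, are printed next beside miRNAs from elsewhere with the same seed, to show which of these seeds the libraries held from other loci. Capitals mark bases 2 to 8.

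miR-372-3p: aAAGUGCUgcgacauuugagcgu
miR-373-3p: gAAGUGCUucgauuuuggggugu
miR-520a-3p: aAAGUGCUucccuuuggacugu
miR-520c-3p: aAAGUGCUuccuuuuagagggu
miR-302b-3p: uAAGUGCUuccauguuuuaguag
miR-519d-3p: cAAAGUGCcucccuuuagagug
miR-20a-5p: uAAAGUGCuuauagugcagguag
miR-93-5p: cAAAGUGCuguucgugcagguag
miR-17-5p: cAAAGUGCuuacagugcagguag
miR-1323: uCAAAACUgaggggcauuuucu
miR-548o-3p: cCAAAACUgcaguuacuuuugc

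The first 5 share the seed AAGUGCU of the stem cell miRNAs. None of the 4 members with that seed had a row, and of the 5 RefSeq names outside these clusters (the miR-302 family) 3 had a row, all at 0. miR-302b-3p had 3 reads in UM-SCC6-M and 2 in the parental library. Among the names with a row, this seed was thus at or near the limit of both libraries. The seed of miR-519d-3p, moved by 1 base, was on the contrary plentiful. Its mates from the miR-17 group, which promote cell cycle entry in many tumours, summed to 6770 normalized reads in UM-SCC6-M and 6420 in the parental library. The largest were miR-20a-5p (2780 and 2610), miR-93-5p (2330 and 2350) and miR-17-5p (1410 and 1090). The seed of miR-1323 was carried by miR-548o-3p, at 87.2 against 274 normalized reads. Of the chromosome 14 members, miR-329-3p shares its seed ACACACC with miR-362-3p (2.87 and 3.06), miR-655-3p its seed UAAUACA with miR-374c-5p (1.91 and a listed 0) and miR-134-5p its seed GUGACUG with miR-3118 (1 read against 2). The letters AAGUGC were in 33.3% of the 15 C19MC members with a sequence and 75.0% of the 4 of the last cluster, against 1.65% of all RefSeq mature miRNAs. GCACUU, its reverse complement, was in 5 other C19MC members, miR-516a-5p among them, and in 1.31% of all.

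Markers of cell types were read from the same table, from lists that include other cells a culture could hold. As background for the counts of markers above 0, 46.0% of all deposited rows were above 0 in at least 1 library. Of 8 epithelial or squamous miRNAs 6 were above 0, with a summed level of 19700 normalized reads in UM-SCC6-M and 16400 in the parental cells. Most of this was miR-200b-3p (17500 and 12800), with miR-200a-3p (1340 and 2670), miR-429 (793 and 845), miR-31-5p (93.9 and 98.5), miR-203a-3p (2.75 and a listed 0) and miR-200c-3p (1.79 and 2.66) below it. No row was present for miR-205-5p or miR-141-3p, so these epithelial markers were not analysed here.

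Of 6 fibroblast or stromal miRNAs 4 were above 0, with sums of 113 normalized reads in UM-SCC6-M and 65.1 in the parental cells. Higher in UM-SCC6-M were miR-199b-5p (730 reads against 316) and miR-199a-3p (183 against 79), each 2.07-fold. Lower were miR-143-3p (34 against 78), miR-199a-5p (1 against 13) and miR-145-5p (1 against 4, listed at 0), and miR-214-3p was listed at 0 without a fold change. Of the 5 with known reads, 2 were thus at least 2-fold higher and 3 at least 2-fold lower. Over all 854 rows with known reads the shares were 12.2% and 19.8%. The interval of miR-145-5p included a ratio of 1 (0.00456 to 2.27). Stromal markers went both ways, and their part in the DLK1-DIO3 values was not tested. Of 5 embryonic stem cell miRNAs 0 were above 0: miR-302a-3p, miR-302b-3p and miR-302d-3p were listed at 0, while miR-302c-3p and miR-367-3p had no row. Of 4 blood cell miRNAs 1 was above 0, miR-486-5p at 17.9 and 24.6 normalized reads. miR-451a had 1 read against 6, miR-142-3p was listed at 0 and miR-223-3p had no row.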

How the data were processed

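Per the labels' protocols, adaptors were ligated to 3 µg of RNA from each culture and a gel cut of 140 to 160 bp was sequenced. The submitters' processing notes name Bowtie. For genome build, miRNA release and scaling tool the entry is: not given in the sources used here. Deposited values are a signal per miRNA; from the values themselves, they are read counts divided by 1 factor per library. The deposited log2 fold changes and p-values (with q-values) are the authors' comparison, per the file headers.

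Listed values came in equal steps, 1 read each (tolerance 0.01 reads). Reads came from both values for 459 rows, from 1 value and the fold change for 96, and from the fold change and p-value for 299. The last route assumes a normal test of the log ratio given the mean level, with scaled values taken as counts. It returned the right reads for 186 of 186 rows with at most 100 reads and both values listed, and whole numbers within 0.00351 for the 299. Rows without a fold change numbered 359. The plan did not foresee the p-value route, and results without it are among the alternatives.

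Log2 ratios use the authors' scaling and 0.5 added reads. Intervals (95%) come from the Clopper-Pearson share of 1 library. The script was tested on simulated data. All members with a value or known reads are named with them, the others by status; of other products, those with a value; of markers, all; of seed mates, the 3 highest. Members and lists were chosen with earlier results of these data known. Python 3.11.15, numpy 2.4.6, pandas 2.3.3, scipy 1.17.1 and matplotlib 3.10.9 were used.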

Additional observations from a re-analysis of the deposited data

How the results depend on the processing

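No paired analysis was possible because each group has 1 library. Counting 1 or more reads in both libraries in place of a listed value raised the DLK1-DIO3 members seen from 7 to 15. The 8 DLK1-DIO3 members at least 2-fold higher became 0 with 5 reads added or at 4-fold, and 4 of 6 at 10 or more reads. They became 1 where the interval had to leave out a ratio of 1. Without the p-value route, an alternative chosen after seeing the data, they were 4 of 7. The 2 lower became 1 at 10 or more reads and 1 without the p-value route. They became 3 at 1.5-fold and with the deposited fold change, where the higher stayed at 8. Shares of 2-fold calls over all rows are not given for these settings. No DLK1-DIO3 member reached 10 normalized reads, so that alternative gave no value there. The 1 lower C19MC member became 0 at 10 normalized reads and at 4-fold. The summed log2 ratio of DLK1-DIO3 moved from -0.16 to 0.53 without its most abundant member, miR-381-3p, and that of C19MC from -0.21 to 0.03 under scaling to total reads, a shift of 0.24 in every ratio. The median of ratios shifted every ratio by 0.15, and the trimmed mean of M-values by 0 after rounding. Of 90 ratios of single members under alternatives, 7 changed sign, all of them for 4 members near 0 (miR-379-5p, miR-495-3p, miR-516a-5p and miR-522-3p).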

Other observations

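Other imprinted loci were also read. miR-675, cut from the imprinted non-coding RNA H19, had 73 reads in UM-SCC6-M and 87 in the parental library for its 3p arm, and 39 and 44 for its 5p arm. Both intervals of the log2 ratio included 0 (-0.88 to 0.06 and -0.99 to 0.33). From the IGF2 intron beside H19, miR-483-3p had 433 reads against 14 and miR-483-5p 142 against 7, ratios of 26.9-fold (16.4 to 51.3) and 17.1-fold (8.62 to 46.2) higher in UM-SCC6-M. miR-335-5p, from an intron of the imprinted gene MEST, had 1 read against 4, and the interval of its log2 ratio included 0 (-7.78 to 1.18). miR-296-3p, from the imprinted GNAS region, had 1 against 12, which is 9.27-fold lower with an interval of 1.98 to 571. Of the 9 names in this list, 5 were above 0, miR-335-5p and miR-335-3p were listed at 0, and miR-296-5p and miR-298 had no row. Over all deposited rows, 46.0% were above 0 in at least 1 library. Of the 6 names with known reads, 2 were at least 2-fold higher and 2 at least 2-fold lower. Over the 854 rows with known reads the shares were 12.2% and 19.8%. The list was written with earlier results known.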
